A study of Mus musculus with 6 samples.

Results

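The scaffold genes of the postsynaptic density described here are 36 mouse genes named by symbol, and acetylation of lysine 5 of histone H4 (H4K5ac) was read over each of them by ChIP-seq in the hippocampus. Each gene was taken from the GENCODE annotation of the mouse genome build mm9, with its gene body running from the first transcription start site (TSS) to the last transcript end and its promoter covering the 2 kb upstream of that TSS. All 36 were found among 22367 protein-coding genes. They lay on 16 chromosomes and spanned 6.01 to 1945 kb with a median of 139 kb, against a median of 15.4 kb over all protein-coding genes. Because most of them were long, with 23 above 100 kb, each was set against the 200 protein-coding genes nearest to it in length, which came to 4361 genes in all. For the longest members the match was loose, as the 200 genes ran from 487 to 4435 kb for both Dlg2 and Magi2.

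Chromatin came from whole hippocampus of C57/BL6 mice aged 6 months in 2 groups. FC mice were males fear conditioned to a context with an electric foot shock on consecutive days, CON mice were exposed to that context without the shock, and hippocampi of both were taken after a memory test on the next day. For each group there was 1 library of chromatin pulled down by an H4K5ac antibody (H4K5ac-ChIP), 1 mock library pulled down by IgG (IgG-IP) and 1 library of genomic DNA (input). With 1 library per group and antibody there was no replicate, so no test between FC and CON was possible, and every interval in parentheses is an exact 95% interval that covers counting error only. More cells carrying the mark and more of the mark in each cell cannot be told apart in this tissue. The FC libraries held 31605738 (H4K5ac-ChIP), 14549689 (IgG-IP) and 45673239 (input) reads, and the CON libraries 35962226, 16491741 and 35493806. Levels are RPKM, read counts scaled to the length of the region and the depth of the library.

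The postsynaptic density is the protein meshwork beneath the membrane of excitatory synapses. Proteins of the Dlg family bind glutamate receptors there, Dlgap proteins tie them to Shank, and Shank and Homer connect this layer to the actin cytoskeleton and to metabotropic receptors. Enzymes that switch small GTPases on and off sit on the same scaffold and shape the dendritic spine. Histone acetylation is a mark of open chromatin at promoters and in transcribed genes.

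Promoter sequences of 4 of the genes are shown because they mark both ends of the promoter results. They are the 300 bases upstream of the first TSS in mm9, 5′ to 3′ on the strand of the gene, with each CpG in capitals. Rapgef2 and Homer3 had the highest mean promoter H4K5ac-ChIP levels apart from Lrrtm2, and Shank2 and Dlg2 had the lowest. The coding TSS listed for Rapgef2 lay 35.5 kb into the gene, so the bases shown lie upstream of a start that is not coding. Within 1 kb of that coding TSS, H4K5ac-ChIP stood at 2.10 RPKM in FC and 1.77 RPKM in CON. The Rapgef2 stretch is chr3:78985263-78985562 (minus strand), that of Homer3 is chr8:72806426-72806725 (plus strand), that of Dlg2 is chr7:97650173-97650472 (plus strand) and that of Shank2 is chr7:151187533-151187832 (plus strand).
Rapgef2: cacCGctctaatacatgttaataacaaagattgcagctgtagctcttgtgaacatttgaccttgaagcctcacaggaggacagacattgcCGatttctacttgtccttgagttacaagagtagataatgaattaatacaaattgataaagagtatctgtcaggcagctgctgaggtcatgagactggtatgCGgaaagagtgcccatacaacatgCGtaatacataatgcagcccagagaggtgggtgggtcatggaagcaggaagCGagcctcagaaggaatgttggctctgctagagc
Homer3: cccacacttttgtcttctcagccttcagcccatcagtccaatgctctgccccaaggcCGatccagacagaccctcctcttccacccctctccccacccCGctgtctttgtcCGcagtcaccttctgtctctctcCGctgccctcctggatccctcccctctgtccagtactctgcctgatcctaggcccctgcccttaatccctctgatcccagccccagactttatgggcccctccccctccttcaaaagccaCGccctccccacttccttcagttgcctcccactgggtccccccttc
Dlg2: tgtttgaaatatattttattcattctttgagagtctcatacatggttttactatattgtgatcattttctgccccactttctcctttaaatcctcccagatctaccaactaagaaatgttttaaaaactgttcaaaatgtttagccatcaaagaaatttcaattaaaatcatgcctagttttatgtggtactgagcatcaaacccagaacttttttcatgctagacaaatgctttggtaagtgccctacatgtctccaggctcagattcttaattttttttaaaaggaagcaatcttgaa
Shank2: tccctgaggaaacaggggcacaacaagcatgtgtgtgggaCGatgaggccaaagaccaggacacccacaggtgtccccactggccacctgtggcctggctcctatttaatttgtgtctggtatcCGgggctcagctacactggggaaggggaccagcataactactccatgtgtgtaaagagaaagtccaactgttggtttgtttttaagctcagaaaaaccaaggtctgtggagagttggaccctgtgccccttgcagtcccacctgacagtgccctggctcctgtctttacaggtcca

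These stretches held 5, 5, 0 and 2 CpG. Over the 36 genes the median was 15 CpG in the same stretch, against 9 over all protein-coding promoters, and 26 of the 36 held at least 10, against 49.7% of all. The median promoter H4K5ac-ChIP level of those 26 scaffold genes was 0.823 RPKM in FC and 0.681 RPKM in CON, and that of the 10 with fewer CpG was 0.831 and 0.855 RPKM. Over all protein-coding genes the same split gave 0.823 and 0.765 RPKM for promoters with at least 10 CpG and 0.380 and 0.375 RPKM for the others. The 10 scaffold promoters with fewer CpG varied widely, from 0.253 RPKM at Shank2 to 1.60 RPKM at Rapgef2 in FC, and the same genes were the lowest and the highest of the 10 in CON. Among the 10, the promoters of Dlg4, Lrrtm2 and Lrrtm3 overlap the coding genes Acadvl, Ctnna1 and Ctnna3. Among the 26, that of Lrrtm1 overlaps Ctnna2. Reads there cannot be assigned to 1 gene, and the share of all promoters with such an overlap is not given here. The sequence TGACGTCA, a palindrome bound by CREB that reads the same on both strands, occurred in 1 of the 36 stretches, that of Lrrtm2, and in 2.00% of all protein-coding promoters.

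The first question was whether gene bodies of the scaffold genes held more H4K5ac-ChIP than IgG-IP reads. A gene was called when its ratio, scaled by total reads, was at least 1.5-fold and at least 20 reads fell in it in both libraries together, a filter that all 36 genes passed. In FC 28 of 36 genes were called (77.8%), against 56.2% of protein-coding genes and 50.9% of the genes nearest in length. In CON 28 of 36 were called (77.8%), against 51.9% and 49%. Both groups shared 26 of these calls. The median log2 ratio was 0.85 in FC and 0.78 in CON, where all protein-coding genes had medians of 0.71 and 0.61 and the genes nearest in length 0.60 and 0.57. Because the median over all genes was itself above 0, the ratios are read against it. Above the protein-coding median lay 26 genes in FC and 27 in CON, and 32 in each group lay above the median of their own 200 genes of similar length. With the ratio scaled to the median of all protein-coding genes instead of total reads, 10 genes were called in FC and 5 in CON, against 20% and 15.3% of protein-coding genes. Over input in place of IgG-IP 12 and 21 were called, against 22.9% and 42.3%.

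**Figure D1:**
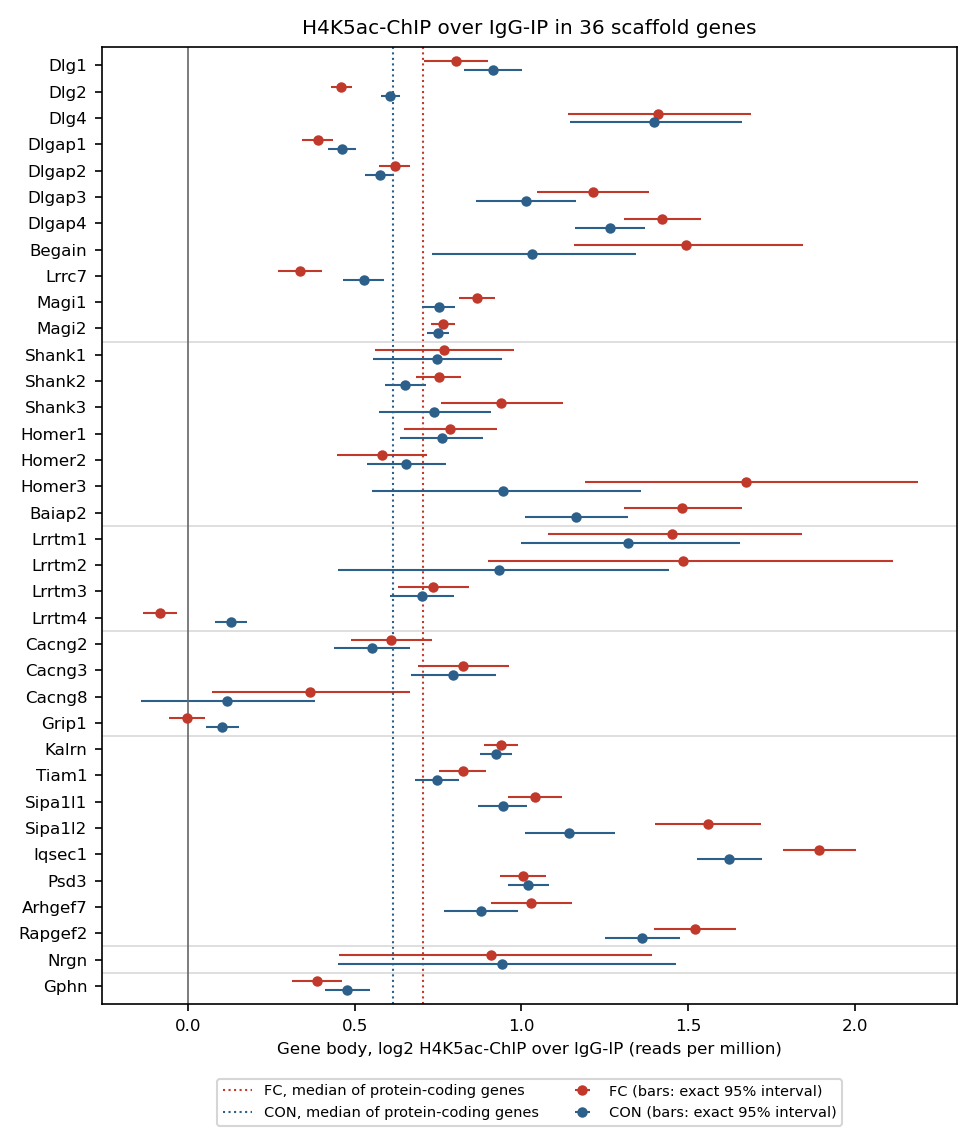
Log2 H4K5ac-ChIP/IgG-IP over gene bodies (x axis, scaled by library depth) for each of the 36 genes (y axis, grouped by role), FC in red and CON in blue, with exact 95% intervals and the medians of all protein-coding genes as dotted lines. Iqsec1 lies farthest right in both groups, at 1.89 and 1.62, and Lrrtm4 and Grip1 lie near 0.

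The 36 genes kept much the same order in both groups. Ratios in FC and CON were related at a Spearman's rho of 0.93 over the 36 genes and of 0.87 over 19192 protein-coding genes, as a description of genes that share length and base composition. Shorter genes had higher ratios, with a rho between length and ratio of -0.57 in FC and -0.50 in CON over the 36 genes and -0.15 and -0.093 over all. The ratio also moved with the GC content of the gene body, with a rho of 0.52 in FC and 0.43 in CON over the 36 genes and 0.61 and 0.51 over all. Length and GC content were themselves related, at a rho of -0.54 over the 36 genes, and their parts in the ratios were not tested.

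In the Dlg layer, which holds receptors and channels at the membrane, 8 of 11 genes were called in each group. Of all protein-coding genes 56.2% were called in FC and 51.9% in CON. Dlg4, the main scaffold of its family at excitatory synapses (chr11:69830587-69859034, plus strand), had 0.841, 0.316 and 0.634 RPKM in FC H4K5ac-ChIP, IgG-IP and input and 0.826, 0.313 and 0.359 in CON. Its log2 ratio over IgG-IP, 1.41 (1.14 to 1.69) in FC and 1.40 (1.14 to 1.66) in CON, was the third highest of the 36 genes on the mean of both groups. Dlg1, a scaffold of receptor trafficking (chr16:31663529-31873436, plus strand), had 0.621, 0.356 and 0.332 RPKM in FC and 0.704, 0.374 and 0.375 in CON, in the same order of libraries. Dlg1 thus stood at 0.80 (0.71 to 0.90) in FC and at 0.91 (0.83 to 1.00) in CON. Dlg2, the longest of the 36 genes at 1945 kb (chr7:97650473-99595513, plus strand), had 0.546, 0.397 and 0.298 RPKM in FC and 0.606, 0.398 and 0.406 in CON. Its ratio over IgG-IP of 0.46 (0.43 to 0.49) in FC and 0.61 (0.58 to 0.63) in CON lay below those of Dlg1 and Dlg4, with no overlap of intervals in either group. Over input this order changed with the group, as Dlg2 lay above Dlg4 in FC and below it in CON. Percentiles of that ratio among genes of similar length were 92.5 and 79 for Dlg2 and 63.3 and 96.0 for Dlg4.

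By ratio over IgG-IP, the Dlgap genes, whose proteins bridge Dlg and Shank, parted into a shorter and a longer pair. Dlgap3 and Dlgap4 span 67.8 and 151 kb and had ratios of 1.21 (1.05 to 1.38) and 1.42 (1.31 to 1.54) in FC and 1.01 (0.86 to 1.16) and 1.27 (1.16 to 1.37) in CON. Dlgap1 and Dlgap2 span 852 and 752 kb and had 0.39 (0.34 to 0.44) and 0.62 (0.57 to 0.67) in FC and 0.46 (0.42 to 0.50) and 0.58 (0.53 to 0.62) in CON. Intervals of the shorter pair lay above those of the longer pair in both groups. Over input the pairs did not part in FC, where the ratio of Dlgap3 lay below that of Dlgap1. The shorter pair also had the higher GC content, 49.8% and 51.8% against 41.6% and 45.0%. The parts of length and GC content in this split were not tested. Begain, a Dlg4 partner, reached 1.49 (1.16 to 1.84) in FC and 1.03 (0.73 to 1.34) in CON. Lrrc7, which encodes densin, had the lowest FC ratio of this layer, 0.34 (0.27 to 0.40), and 0.53 (0.47 to 0.59) in CON. Magi1 and Magi2, inverted relatives of the Dlg proteins, had 0.87 (0.81 to 0.92) and 0.76 (0.73 to 0.80) in FC and 0.75 and 0.75 in CON.

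The Shank genes, which encode the large scaffolds beneath the Dlg layer, were alike over their gene bodies. Shank1 (chr7:51565623-51613721, plus strand) had 0.586, 0.344 and 0.640 RPKM in FC H4K5ac-ChIP, IgG-IP and input and 0.599, 0.357 and 0.412 in CON. Shank2 (chr7:151187833-151610399, plus strand) had 0.619, 0.368 and 0.679 RPKM in FC and 0.615, 0.391 and 0.454 in CON. Shank3 (chr15:89330054-89390692, plus strand) had 0.665, 0.347 and 0.604 RPKM in FC and 0.613, 0.367 and 0.413 in CON. Their log2 ratios over IgG-IP were 0.77 (0.56 to 0.98), 0.75 (0.68 to 0.82) and 0.94 (0.76 to 1.12) in FC and 0.75 (0.56 to 0.94), 0.65 (0.59 to 0.71) and 0.74 (0.57 to 0.91) in CON, with overlapping intervals in each group. In FC the H4K5ac-ChIP level of Shank1 and Shank2 lay below that of input, at log2 ratios over input of -0.13 and -0.13, and in CON above it, at 0.54 and 0.44.

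The Homer genes, which join Shank to metabotropic glutamate receptors, spread more widely in FC. Homer1 (chr13:94073712-94174917, plus strand), which also gives a short immediate early isoform, had 0.630, 0.365 and 0.346 RPKM in FC H4K5ac-ChIP, IgG-IP and input and 0.687, 0.406 and 0.413 in CON. Homer2 (chr7:88745367-88851811, minus strand) had 0.575, 0.384 and 0.582 RPKM in FC and 0.673, 0.427 and 0.435 in CON. Homer3 (chr8:72806726-72818260, plus strand), 11.5 kb long and overlapping Ddx49, had 0.760, 0.238 and 0.592 RPKM in FC and 0.658, 0.342 and 0.379 in CON. Ratios over IgG-IP were 0.79 (0.65 to 0.93) for Homer1, 0.58 (0.45 to 0.72) for Homer2 and 1.67 (1.19 to 2.19) for Homer3 in FC. The Homer3 interval lay above the others there, whereas in CON its ratio of 0.95 (0.55 to 1.36) overlapped the 0.76 (0.64 to 0.89) of Homer1 and the 0.65 (0.54 to 0.77) of Homer2. The FC value of Homer3 rested on 277 H4K5ac-ChIP and 40 IgG-IP reads. Baiap2, an adaptor between Shank and actin, had 1.48 (1.31 to 1.66) in FC and 1.16 (1.01 to 1.32) in CON.

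Lrrtm genes encode adhesion proteins that reach across the synaptic cleft to neurexins. Lrrtm1 had 0.859, 0.314 and 0.442 RPKM in FC H4K5ac-ChIP, IgG-IP and input and 0.932, 0.373 and 0.450 in CON. Lrrtm2 had 0.894, 0.320 and 0.331 RPKM in FC and 0.846, 0.444 and 0.403 in CON. Lrrtm3 had 0.664, 0.399 and 0.403 RPKM in FC and 0.679, 0.417 and 0.451 in CON. These 3 genes lie wholly within the alpha-catenin genes Ctnna2, Ctnna1 and Ctnna3, and a ChIP read does not tell which of the overlapping genes it belongs to. Lrrtm4 (chr6:79968871-80760137, plus strand), which lies in no other coding gene, had 0.379, 0.401 and 0.276 RPKM in FC and 0.429, 0.393 and 0.397 in CON. Its ratio over IgG-IP, -0.083 (-0.13 to -0.032) in FC and 0.13 (0.081 to 0.18) in CON, was the lowest of the 36 genes on the mean of both groups, whereas Lrrtm1 stood at 1.45 (1.08 to 1.84) and 1.32 (1.00 to 1.65). Lrrtm2 had 1.48 (0.90 to 2.11) and 0.93 (0.45 to 1.44), and Lrrtm3 0.74 (0.63 to 0.84) and 0.70 (0.61 to 0.80).

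Among the genes that keep AMPA receptors at the synapse, median ratios were 0.49 in FC and 0.33 in CON. Of these 4 genes 2 were called in FC and 1 in CON, where 56.2% and 51.9% of protein-coding genes were. Grip1, a PDZ protein that binds AMPA receptor tails (chr10:118891090-119524317, plus strand), had 0.421, 0.422 and 0.515 RPKM in FC H4K5ac-ChIP, IgG-IP and input and 0.458, 0.426 and 0.451 in CON. Its H4K5ac-ChIP and IgG-IP levels were nearly equal, at a log2 ratio of -0.0025 (-0.058 to 0.053) in FC and 0.10 (0.053 to 0.15) in CON. Cacng8, an auxiliary subunit of AMPA receptors (chr7:3394567-3415366, plus strand), had 0.554, 0.430 and 0.559 RPKM in FC and 0.553, 0.510 and 0.386 in CON. Cacng8 thus stood at 0.37 (0.073 to 0.67) in FC and at 0.12 (-0.14 to 0.38) in CON. The related Cacng2, which encodes stargazin, and Cacng3 had 0.61 and 0.82 in FC and 0.55 and 0.79 in CON.

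All 8 GTPase regulators were called in both groups, where 56.2% of protein-coding genes were called in FC and 51.9% in CON. Median ratios of the 8 were 1.03 in FC and 0.98 in CON. Iqsec1, an Arf exchange factor (chr6:90609592-90760117, minus strand), had 1.32, 0.356 and 0.698 RPKM in FC H4K5ac-ChIP, IgG-IP and input and 1.24, 0.402 and 0.443 in CON. Its H4K5ac-ChIP level was the highest of the 36 genes in both groups, as was its ratio of 1.89 (1.79 to 2.00) in FC and 1.62 (1.53 to 1.72) in CON. Rapgef2, an exchange factor for Rap (chr3:78866438-78985262, minus strand), had 1.05, 0.365 and 0.434 RPKM in FC and 1.02, 0.397 and 0.439 in CON. Its ratio of 1.52 (1.40 to 1.64) and 1.36 (1.252 to 1.47) was the second highest on the mean of both groups. Sipa1l2, which turns Rap off, had 1.56 (1.40 to 1.72) in FC and 1.14 (1.01 to 1.28) in CON, and its relative Sipa1l1 1.04 (0.96 to 1.12) and 0.94 (0.87 to 1.02). The Rac exchange factors Kalrn and Tiam1 had 0.94 and 0.82 in FC and 0.92 and 0.75 in CON. Arhgef7, which acts on Rac and Cdc42, had 1.03 and 0.88, and the Arf exchange factor Psd3 1.01 and 1.02.

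Nrgn, whose protein neurogranin binds calmodulin in the spine, had a ratio of 0.91 (0.45 to 1.39) in FC and 0.94 (0.45 to 1.46) in CON. Gphn encodes gephyrin, the scaffold of inhibitory synapses. It had 0.395, 0.302 and 0.211 RPKM in FC H4K5ac-ChIP, IgG-IP and input and 0.437, 0.314 and 0.325 in CON, with a ratio of 0.39 (0.31 to 0.46) and 0.48 (0.41 to 0.55). Its input levels were the lowest of the 36 genes in both groups, and its gene body had their lowest GC content, 36.8%.

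Against the 200 protein-coding genes nearest in length, the H4K5ac-ChIP level of a scaffold gene stood at a median percentile of 77 in FC and 70.5 in CON. In FC 28 of 36 genes lay above the 50th percentile and 20 above the 75th, and in CON 30 and 16, while 0 lay below the 25th in either group. IgG-IP gave median percentiles of 34.8 and 48.3, and 11 genes in FC and 7 in CON lay below the 25th. Input gave 74 in FC and 52 in CON, so the FC input library was high over the same genes. With the ratio over input the median percentile was 65.7 in FC and 74.5 in CON. Against the 200 genes nearest in GC content, a comparison chosen after seeing the data, the H4K5ac-ChIP level stood at median percentiles of 69.5 and 75.5.

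**Figure D2:**
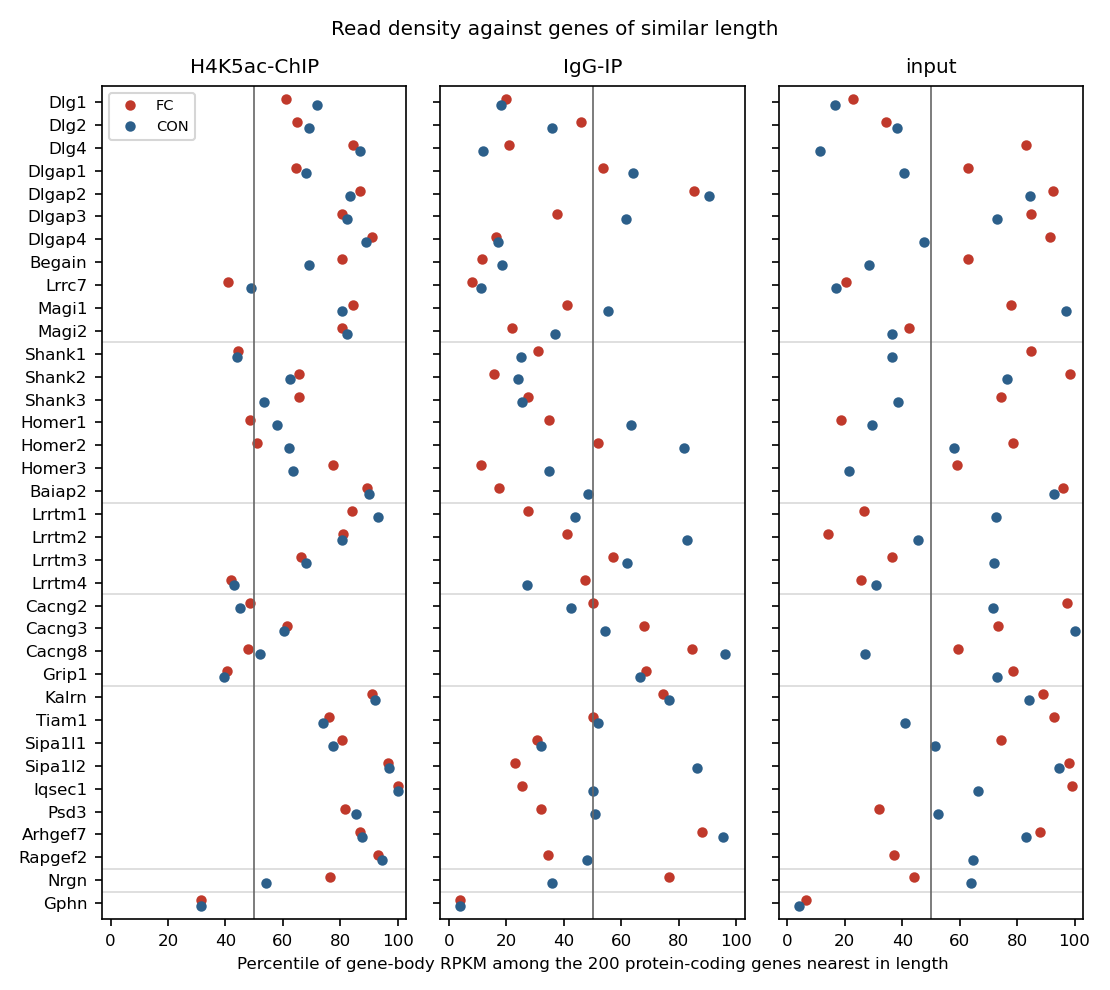
Percentile of the gene-body RPKM of each gene among the 200 protein-coding genes nearest in length (x axis, 0 to 100), for H4K5ac-ChIP, IgG-IP and input, FC in red and CON in blue. H4K5ac-ChIP percentiles run from 31.5 for Gphn to 100 for Iqsec1 in both groups, and IgG-IP percentiles from 4 upward.

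By role, the GTPase regulators stood highest in H4K5ac-ChIP level among genes of similar length. Their median percentile was 89 in FC and 89.8 in CON, and their lowest value was 74. Iqsec1 was at 100 in both groups, above all 200 genes of similar length. Sipa1l2 was at 96.5 and 97, Rapgef2 at 93 and 94.5 and Kalrn at 91 and 92. Input percentiles were 99 and 66.5 for Iqsec1, 98 and 94.5 for Sipa1l2, 37 and 64.5 for Rapgef2 and 89 and 84 for Kalrn. As a ratio over input, percentiles of the GTPase regulators ran from 42.5 (Tiam1) to 99.5 (Rapgef2) in FC. In CON they ran from 75 (Tiam1) to 100 (Iqsec1). By that ratio Lrrtm1 to Lrrtm4 stood at 97.5, 99.0, 83 and 67 in FC and at 88.3, 77.9, 63.5 and 42 in CON. Against genes of equal GC content, the FC level of Lrrtm1 to Lrrtm4 stood at 94.5, 100, 94 and 67. That of the GTPase regulators ran from 59 (Tiam1) to 99 (Iqsec1 and Rapgef2). The order of roles is thus given for the level among genes of similar length only. By that level the Dlg layer had a median of 80.5 in each group, the adhesion genes 73.8 and 74.3, and the Shank and Homer genes 65.5 and 62. The auxiliary and anchoring proteins of AMPA receptors stood at 48.3 and 48.5, about the middle of genes of their length. Gphn was lowest of the 36 at 31.5 in each group. Its IgG-IP and input were lower still for its length, at 4 and 6.5 in FC and 4 and 4 in CON. As a ratio, Gphn stood at 57 in FC and 60.5 in CON over IgG-IP and at 96 and 59.5 over input.

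The second question was how promoters compared with gene bodies. In the 2 kb upstream of the first TSS, 29 of 36 genes were called over IgG-IP in FC (80.6%), against 66.5% of protein-coding genes, and 27 of 36 in CON (75%), against 61%. Median log2 ratios were 1.32 and 0.95, beside 1.07 and 0.88 over all protein-coding genes and 1.11 and 0.93 over the genes nearest in length. Of the 36 promoters, 21 in FC and 19 in CON lay above the protein-coding median. Above the median of their own 200 genes of similar length lay 22 and 20. Relative to the median of protein-coding promoters, 14 promoters in FC and 9 in CON remained past the 1.5-fold threshold, with median log2 ratios of 0.24 and 0.075, against 27.2% and 25% of protein-coding promoters past it. Over input, 19 promoters were called in FC and 27 in CON, against 43.1% and 53.5%. A promoter held only 16 to 101 H4K5ac-ChIP reads, so its intervals are wide. The H4K5ac-ChIP level was higher over the promoter than over the gene body for 23 of 36 genes in FC and 19 in CON, with a median log2 difference of 0.18 and 0.034, while IgG-IP had -0.27 and -0.069 and input 0.032 and -0.039. Over all protein-coding genes the median difference in H4K5ac-ChIP was 0.31 and 0.27.

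Rapgef2 had 1.60, 0.619 and 0.449 RPKM upstream of its first TSS, not its coding one, in FC H4K5ac-ChIP, IgG-IP and input. In CON it had 1.2513, 0.515 and 0.578 there. Homer3 had 1.39, 0.206 and 0.515 RPKM in FC and 1.06, 0.334 and 0.493 in CON. Their log2 ratios over IgG-IP were 1.37 (0.64 to 2.18) and 2.76 (1.58 to 4.24) in FC and 1.28 (0.52 to 2.12) and 1.66 (0.74 to 2.73) in CON. At the other end, the Shank2 promoter had 0.253, 0.515 and 0.712 RPKM in FC and 0.222, 0.455 and 0.465 in CON. Shank2 was the gene whose promoter lay farthest below its gene body in H4K5ac-ChIP, at log2 differences of -1.29 and -1.47, while its IgG-IP was higher over the promoter, at 0.49 and 0.22. With 16 H4K5ac-ChIP and 15 IgG-IP reads in each group, its promoter ratio came to -1.03 (-2.14 to 0.093) in FC and -1.03 (-2.14 to 0.087) in CON. Dlg2, with no CpG in the sequence shown, had promoter levels of 0.269, 0.309 and 0.339 RPKM in FC and 0.501, 0.424 and 0.563 in CON.

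The Shank promoters spread more widely than the Shank gene bodies, on far fewer reads. In FC the interval of the Shank2 promoter ratio over IgG-IP lay below those of Shank1 and Shank3, whereas in CON the intervals overlapped. The Shank1 promoter had 1.03, 0.275 and 0.690 RPKM in FC and 0.598, 0.424 and 0.352 in CON. The Shank3 promoter had 0.902, 0.0687 and 0.536 RPKM in FC and 0.542, 0.273 and 0.254 in CON. The Shank3 ratio over IgG-IP in FC, 3.71 (1.79 to 6.79), was the highest promoter ratio of the 36 genes but stood on 57 H4K5ac-ChIP and 2 IgG-IP reads, and in CON it was 0.99 (-0.079 to 2.22). Shank1 stood at 1.90 (0.84 to 3.17) in FC and at 0.49 (-0.40 to 1.48) in CON. Homer1 and Homer2 promoters had ratios of 2.18 (0.97 to 3.68) and 1.203 (0.011 to 2.62) in FC and 1.66 (0.74 to 2.73) and 1.46 (0.48 to 2.59) in CON.

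Most of the genes have further start sites, and 22 of the 36 had more than 1 coding TSS over 1 kb apart. Dlg2 had 8 such sites. Within 1 kb of the first one it held 0.332 RPKM of H4K5ac-ChIP in FC and 0.473 in CON. Within 1 kb of the fifth, 1041 kb into the gene, it held 1.2498 and 1.46 RPKM, with ratios over IgG-IP of 1.38 (0.55 to 2.31) and 1.78 (0.97 to 2.70). At Shank2 the sites 174 and 282 kb into the gene held 0.949 and 0.696 RPKM in FC and 0.709 and 0.848 in CON, against 0.364 and 0.320 at its first site. For Rapgef2 and Psd3 the first coding site lay 35.5 and 60.3 kb into the gene. In 21 genes the coding site with the most H4K5ac-ChIP reads was not the first coding one. That site was picked by its own reads, so its level is a description and no comparison.

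**Figure D3:**
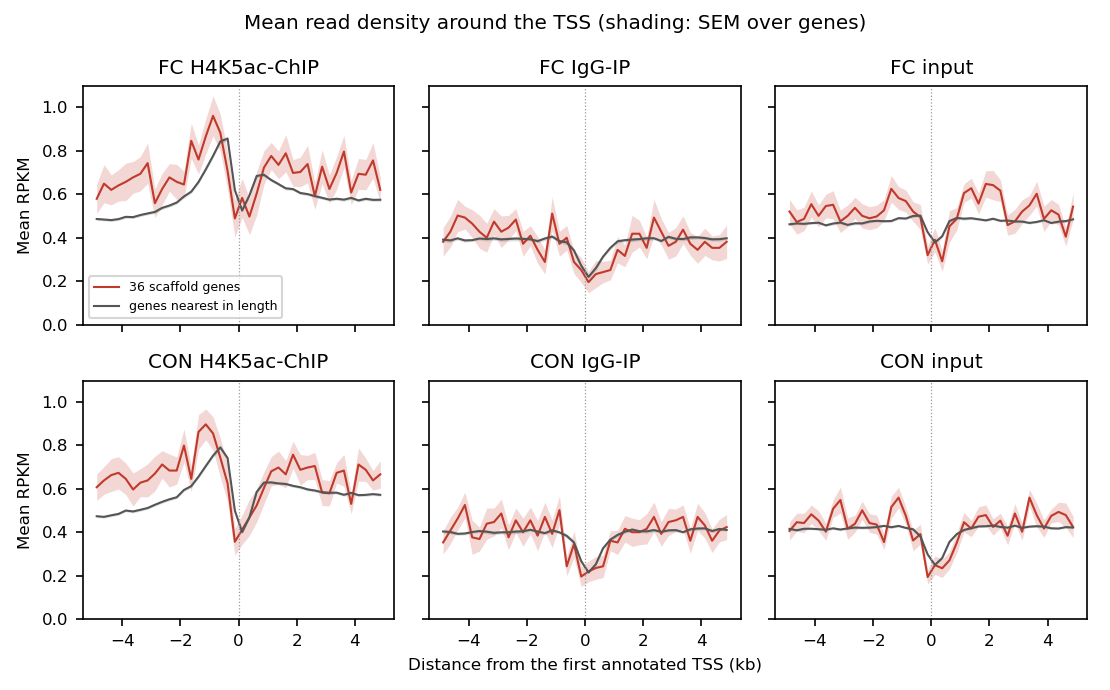
Mean RPKM (y axis, 1 read per position and strand, bins of 250 bp) against the distance from the first annotated TSS in kb (x axis) for the 36 scaffold genes in red and the 4361 genes nearest in length in grey, with the SEM over genes shaded. H4K5ac-ChIP of the scaffold genes peaked upstream at 0.961 RPKM in FC and 0.897 in CON, and all 6 libraries dipped at the TSS.

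Averaged over the 36 genes, H4K5ac-ChIP peaked upstream of the first TSS at 0.961 RPKM in FC, 875 bp before it, and at 0.897 RPKM in CON, 1125 bp before it. These summits were 1.46 and 1.41 times the level between 3 and 5 kb upstream. In the other libraries the highest upstream bin stood at 1.15 times that level in FC and 1.19 times in CON for IgG-IP. For input it stood at 1.22 and 1.21 times, and the CON input summit lay in the same bin as that of CON H4K5ac-ChIP. The highest of several bins tends to lie above a mean. The FC IgG-IP summit was a single bin of 0.511 RPKM. The bins beside it held 0.288 and 0.372 RPKM, below the 0.446 farther upstream. In CON the IgG-IP summit of 0.502 RPKM lay below the 0.5255 in the bin 4125 bp upstream, so no rise is read from IgG-IP. Genes nearest in length peaked closer to the TSS, 375 bp before it at 0.857 RPKM in FC and 625 bp before it at 0.791 RPKM in CON, at 1.74 and 1.61 times their level farther upstream. In the bin centred 125 bp before the TSS, the scaffold genes fell to 0.489 RPKM in FC and 0.356 RPKM in CON. IgG-IP and input were low there as well, at 0.251 and 0.320 RPKM in FC and 0.196 and 0.194 RPKM in CON, so the dip was present in all 6 libraries. Downstream of the TSS the scaffold genes reached 0.789 RPKM in FC and 0.757 RPKM in CON within 2 kb, beside 0.686 and 0.647 RPKM between 3 and 5 kb downstream. Input reached 0.648 RPKM in FC and 0.479 RPKM in CON, beside 0.517 and 0.466. IgG-IP reached 0.418 and 0.416 RPKM, beside 0.375 and 0.423. No downstream peak of the mark is read from these bins.

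Along the gene body, the start of the scaffold genes held a slightly smaller share of H4K5ac-ChIP reads than in other genes. The first 10% of the length held a median of 9.15% of the reads of the gene body in FC and 8.85% in CON, against 10.3% and 10.1% for the genes nearest in length. The last 10% held 10.7% and 10.04%, against 10.02% and 9.99%. IgG-IP of the scaffold genes had 9.95% and 9.52% in the first 10% and 9.46% and 9.48% in the last.

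Over the 36 genes, the last 10% held a larger share of H4K5ac-ChIP reads than the first in 24 genes in FC and 23 in CON, and in 21 of them in both groups. In input this was so for 23 and 18 genes, and in IgG-IP for 14 and 19. Among the 10 longest genes the last 10% held the larger H4K5ac-ChIP share in both groups for 6 (Dlg2, Magi2, Dlgap1, Dlgap2, Grip1 and Magi1) and in neither for 3. Of these 10 genes, the last 10% held the larger share in 7 in FC and 6 in CON for H4K5ac-ChIP, in 8 and 4 for input and in 1 and 5 for IgG-IP. Dlg2, Magi2, Shank2 and Gphn are described here after their values were seen. Dlg2 had 6.24% (5.99 to 6.51) of its FC H4K5ac-ChIP reads in the first 10% and 12.1% (11.8 to 12.5) in the last, and 6.08% and 11.1% in CON. Its IgG-IP was nearly even, with 9.52% and 10.1% in FC, while its input rose toward the end too, from 8.79% to 13.3% in FC and from 9.39% to 10.1% in CON. Magi2 had 8.24% (7.93 to 8.55) in the first and 13.4% (13.1 to 13.8) in the last 10% in FC, and 7.52% and 13.5% in CON, where IgG-IP had 9.52% and 10.8% and input 9.16% and 10.8%. In FC the input of Magi2 had 8.35% and 14.9%. Shank2 had 8.39% (7.80 to 9.01) and 13.6% (12.8 to 14.3) in FC and 7.20% and 12.7% in CON, where IgG-IP had 10.01% and 9.21% and input 9.67% and 8.95%. Gphn had the smaller share at the end in both groups, with 13.7% (12.8 to 14.6) in the first 10% and 13.1% in the last in FC and 14.9% (14.1 to 15.7) in the first 10% in CON, beside 11.0% and 9.996% in the first 10% in IgG-IP.

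**Figure D4:**
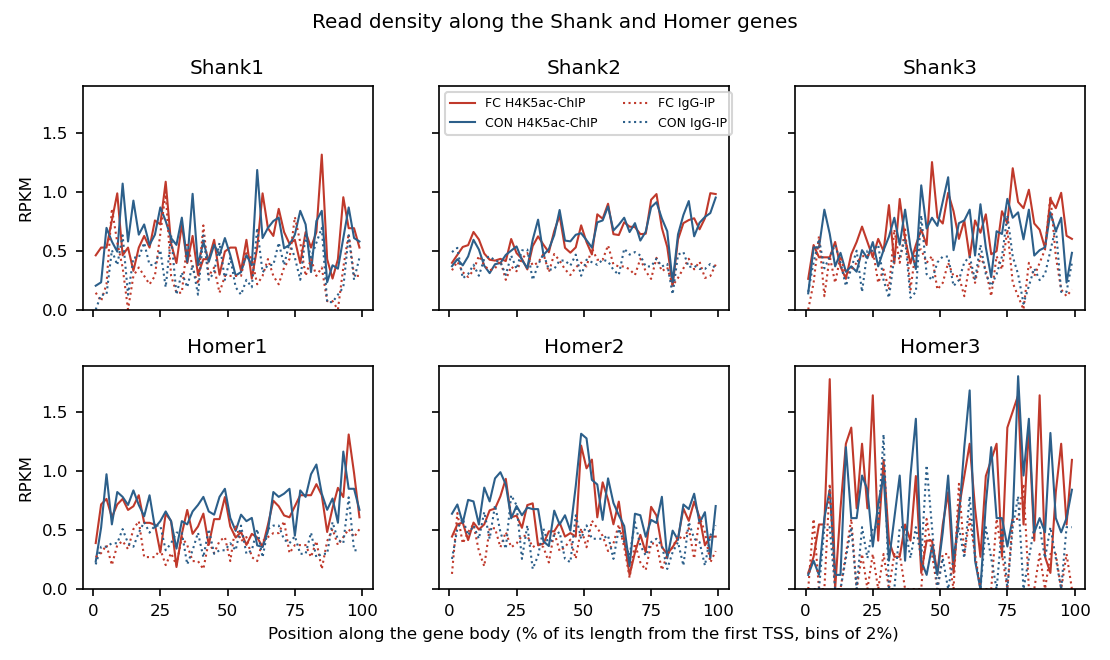
RPKM (y axis) along the gene body in 50 bins of 2% of its length (x axis, from the first TSS) for 3 Shank and 3 Homer genes, H4K5ac-ChIP as solid and IgG-IP as dotted lines, FC in red and CON in blue. Homer2 has a rise near its middle to 1.22 RPKM in FC and 1.32 RPKM in CON, and the short Homer3 has few reads in a bin.

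The densest window of 1 kb, searched from 5 kb upstream of the first TSS to the end of the gene, was set against all windows searched. Averaged over the 36 genes, 75.1% of the windows searched were in an intron, 17.1% touched an exon, 7.86% lay upstream and 14.7% were within 2 kb of an annotated TSS. In FC the densest one was in an intron for 27 genes, touched an exon for 5 and lay upstream for 4, and in CON the counts were 25, 7 and 4. For 5 genes in each group it was within 2 kb of an annotated TSS, and the median distance was 16.2 kb in FC and 16.5 kb in CON. The window was picked by its reads in 1 group, so the other group gives a value not used in the pick. Windows densest in FC exceeded the median window of the same gene in CON for 31 of 36 genes, and those densest in CON did so in FC for 34. In the same windows input exceeded its own median window for 22 to 30 genes and IgG-IP for 19 to 22. FC input did so for 27 genes in windows densest in FC and for 30 in those densest in CON. What all libraries share at a window was not separated from the mark. The densest window itself was shared by FC and CON for 1 gene, Shank1, 3.50 kb upstream of the first TSS, where H4K5ac-ChIP had 44 reads (FC) and 43 (CON), beside 3 and 4 of IgG-IP and 35 and 19 of input.

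The densest FC window of Rapgef2 held 84 reads in FC and 78 in CON, where the median window of the gene held 37. That of Iqsec1 held 85 reads in FC and 58 in CON, where the CON median was 45. Kalrn did not repeat, as its densest FC window held 108 reads in FC at 24 distinct positions and 20 reads in CON at 19 positions, below the CON median of 30. Repeated reads at the same position thus made up most of the FC reads in the Kalrn window.

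The third question was whether the scaffold genes differed between FC and CON. Over gene bodies the differences in H4K5ac-ChIP were small, with log2 ratios of FC over CON between -0.23 and 0.37 and a median of 0.014, beside 0.039 over all protein-coding genes and 0.0028 over the genes nearest in length. At a log2 ratio of 0.32 or more either way, 1 of 36 genes was higher in FC (2.78%), against 10.8% of protein-coding genes and 3.4% of the genes nearest in length, and 0 were lower, against 4.06% and 1.93%.

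**Figure D5:**
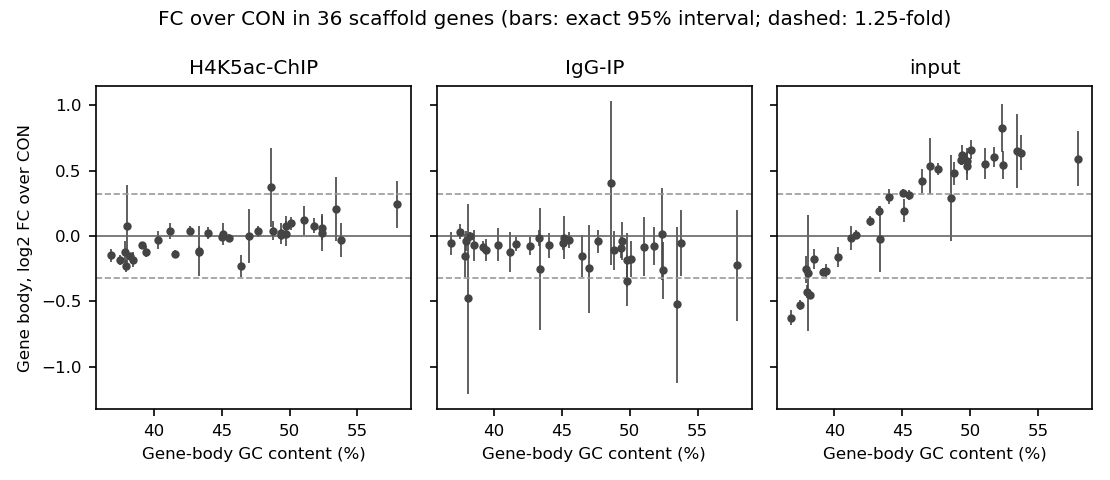
Gene-body log2 ratio of FC over CON (y axis, scaled by library depth) against gene-body GC content in % (x axis) for the 36 genes, in H4K5ac-ChIP, IgG-IP and input, with exact 95% intervals and dashed lines at a log2 ratio of 0.32 either way. Input climbs with GC content, between -0.62 and 0.82, while H4K5ac-ChIP stays between -0.23 and 0.37.

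Nrgn (chr9:37352078-37360330, minus strand) was the gene past that threshold. It had 0.767, 0.408 and 0.525 RPKM in FC H4K5ac-ChIP, IgG-IP and input and 0.593, 0.309 and 0.430 in CON, with 200 and 176 H4K5ac-ChIP reads. The log2 ratio of FC over CON was 0.37 (0.071 to 0.67) in H4K5ac-ChIP, 0.40 (-0.22 to 1.03) in IgG-IP and 0.29 (-0.041 to 0.62) in input, so all 3 kinds of library were higher in FC. Begain (chr12:110270397-110291589, minus strand) had 0.767, 0.272 and 0.583 RPKM in FC and 0.649, 0.318 and 0.387 in CON. Its ratio of FC over CON was 0.24 (0.060 to 0.42) in H4K5ac-ChIP, -0.22 (-0.65 to 0.20) in IgG-IP and 0.59 (0.38 to 0.80) in input. Homer3 had 0.21 (-0.039 to 0.45), -0.52 (-1.13 to 0.070) and 0.65 (0.36 to 0.93). Among these 3 highest genes, input was on the side of FC each time.

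At the lower end stood Lrrc7 (chr3:157745859-158225185, minus strand), with 0.453, 0.359 and 0.286 RPKM in FC and 0.531, 0.369 and 0.383 in CON. Its log2 ratio of FC over CON was -0.23 (-0.27 to -0.18) in H4K5ac-ChIP, -0.039 (-0.12 to 0.039) in IgG-IP and -0.42 (-0.47 to -0.37) in input. Homer2 had -0.23 (-0.31 to -0.14), -0.15 (-0.31 to 0.0039) and 0.42 (0.33 to 0.51), and Dlg1 -0.18 (-0.24 to -0.12), -0.070 (-0.19 to 0.048) and -0.18 (-0.25 to -0.10). Input was thus lower in FC for Lrrc7 and Dlg1 and higher for Homer2. In H4K5ac-ChIP, Dlg2 had -0.15 (-0.17 to -0.13) and Dlg4 0.026 (-0.12 to 0.17), Shank1, Shank2 and Shank3 had -0.031, 0.010 and 0.12, and Homer1 had -0.13 (-0.21 to -0.040). The Lrrtm genes had -0.12, 0.080, -0.031 and -0.18 from Lrrtm1 to Lrrtm4.

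The difference between FC and CON moved with the GC content of the gene, as the plot of FC over CON by GC content shows. Over the 36 genes Spearman's rho with GC content was 0.96 for input, 0.68 for H4K5ac-ChIP and -0.25 for IgG-IP, and over 19192 protein-coding genes 0.86, 0.38 and -0.13. Less the median of protein-coding genes of the same GC content, the H4K5ac-ChIP ratio was -0.29 for Homer2, -0.12 for Lrrc7, -0.088 for Dlg1, 0.28 for Nrgn, 0.019 for Begain and 0.064 for Homer3. After that subtraction 0 genes were past 0.32 in either direction, where 7.85% of protein-coding genes were higher and 5.2% lower. Less the input ratio 3 genes were higher and 18 lower, where 10.6% and 42.7% of protein-coding genes were, and the median was -0.32, beside -0.25 over protein-coding genes.

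Over promoters 13 of 36 genes were higher in FC by at least 0.32 on the log2 scale (36.1%), against 26.5% of protein-coding genes, and 6 were lower by as much (16.7%), against 14.5%. The interval lay beyond 0 for 5 promoters upward and 2 downward of the 36. The share of all protein-coding promoters with such an interval is not given here, so nothing is read from these 2 counts. The median log2 ratio was 0.17, beside 0.087 over all protein-coding genes, and that of input was 0.38, beside 0.28. Magi1 had the highest, with 0.712 RPKM in FC and 0.334 in CON, 45 and 24 reads, at 1.09 (0.35 to 1.87). Its input ratio was 0.90 (-0.0058 to 1.87). Shank1 had 0.78 (0.20 to 1.37) and Shank3 0.73 (0.12 to 1.36), where input had 0.97 (0.28 to 1.70) and 1.08 (0.28 to 1.95). Dlg2 and Dlgap2 were lowest, at -0.90 (-1.82 to -0.027) and -0.84 (-1.59 to -0.13), and their input stood at -0.73 (-1.46 to -0.019) and -0.071 (-0.70 to 0.57).

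A list of 45 other postsynaptic genes, among them kinases, adhesion proteins and paralogs of the 36, was read in the same way. Over gene bodies 36 of 45 were called over IgG-IP in FC and 30 in CON, with median log2 ratios of 1.08 and 0.85, where 56.2% and 51.9% of protein-coding genes were called. Of its 21 paralogs of scaffold genes, 14 were called in FC and 10 in CON, with medians of 0.81 and 0.57. Dlg3, on the X chromosome, had 1.56 in FC and 1.26 in CON. Sipa1l3, the third gene of its family, had 1.56 and 1.35, Magi3 0.45 and 0.65, Grip2 0.61 and 0.36, and Iqsec3 0.49 and 0.45. Iqsec2 had 1.26 and 1.10, and their scaffold relative Iqsec1 had 1.89 in FC.

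As a check of the tissue, gene bodies of marker genes were read in the same way. Over all protein-coding genes, 56.2% were called over IgG-IP in FC and 51.9% in CON. Excitatory neuron genes were called for 6 of 8 in FC and 5 in CON, inhibitory neuron genes for 3 and 0 of 5, astrocyte genes for 3 and 4 of 6, oligodendrocyte genes for 8 and 6 of 9, microglia genes for 4 and 3 of 7 and endothelium genes for 3 and 2 of 6. Genes of other tissues were called for 4 and 3 of 9. With 5 to 9 genes a list and several shares near those of all protein-coding genes, nothing is read from these counts about cell types. The part of any cell type in the values above was not tested.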

How the data were processed

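SOLiD reads of 50 bp were aligned to mm9 with Bioscope by the authors, who allowed several mappings per read. The deposited files list aligned reads in BED format without normalization, and the score in them is the mapping quality given by the authors, 4 to 100. Each read counted as 1 whatever its score. A read was assigned to every interval it overlapped by at least 1 bp, each gene giving 1 interval over the span of its transcripts, without regard to strand. Read ends fell within the chromosome lengths of the reference genome of the same build, from which GC content and promoter sequences were taken. Levels are RPKM. Ratios were scaled by total reads and have exact binomial intervals. Mean profiles used 1 read per position and strand. Named genes are all 36 by role, with full values for every Dlg, Shank, Homer and Lrrtm gene and for the 3 highest and 3 lowest by gene-body ratio over IgG-IP and by FC over CON. The members and gene lists were chosen with earlier results of these data known. Percentiles among genes of equal GC content or autosomal genes only and levels at the TSS with the most reads were added after seeing the data. Counting and intervals were tested on simulated data. Python 3.11.15, NumPy 2.4.6, SciPy 1.17.1, pandas 2.3.3 and matplotlib 3.10.9 were used. Per the study methods 3 hippocampal samples per group were cross-linked individually, and how they relate to the 1 library per group is not given in the sources used here. Shares along the gene and densest windows counted read midpoints.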

Additional observations from a re-analysis of the deposited data

How the results depend on the processing

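No paired analysis was possible because there was 1 library per group and antibody. Scaling each ratio over IgG-IP to the median of protein-coding genes left 10 gene bodies called in FC and 5 in CON, with median log2 ratios of 0.14 and 0.16, and 14 and 9 promoters. A fold of 2 left 14 and 10 gene bodies, and 17 CON promoters. Input in place of IgG-IP left 12 FC gene bodies, with a median of 0.47, and 19 FC promoters. For FC over CON over gene bodies, subtracting the input ratio gave 3 genes higher, 18 lower and a median of -0.32, subtracting the IgG-IP ratio gave 4 higher, and subtracting the median at equal GC content, or a fold of 1.5, gave 0. Within 1 kb on each side of the TSS, 2 promoters were lower in FC. For the folds of 2 and 1.5, the IgG-IP subtraction and the 1 kb setting, no share of protein-coding genes is given. Nothing is read from those counts about the scaffold genes. The FC median percentile was 65.7 with the ratio over input, and the CON one 75.5 among genes of equal GC content, an alternative chosen after seeing the data. In FC 8 densest windows of 500 bp lay within 2 kb of a TSS, 9 of 2 kb and 8 with 1 read per position and strand.

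Called genes changed sign as follows. Over input, FC gene bodies gave -0.13 for Shank1, -0.13 for Shank2 and -0.22 for Cacng2, FC promoters -0.17 for Begain, -0.34 for Homer2 and -0.65 for Grip1, and CON promoters -0.099 for Lrrc7 and -0.25 for Arhgef7. Median scaling subtracts 1 value from every ratio (0.71 in FC and 0.61 in CON for gene bodies, 1.07 and 0.88 for promoters), so a called gene below the median changes sign by construction. With it, gene bodies gave -0.085 for Dlgap2 and -0.096 for Cacng2 in FC and -0.0078 for Dlg2 in CON, FC promoters -0.055 for Dlg1, -0.43 for Lrrtm4, -0.077 for Cacng2, -0.13 for Cacng8, -0.32 for Grip1, -0.19 for Sipa1l1, -0.29 for Nrgn and -0.063 for Gphn, and CON promoters -0.11 for Dlgap1, -0.22 for Dlgap4, -0.19 for Lrrc7, -0.22 for Magi1, -0.23 for Magi2 and -0.27 for Tiam1. A promoter of 5 kb gave -0.26 for Dlgap1 in CON, and 1 kb on each side of the TSS -0.76 for Shank3. For FC over CON, Nrgn was -0.032 less its IgG-IP ratio, and within 1 kb of the TSS Tiam1 was 0.13, Psd3 0.10 and Gphn 0.11. Apart from median scaling, the cause was not tested. Single genes moved by more than their counting interval in 70 recomputed values over FC gene bodies, 61 over CON gene bodies and 84 for FC over CON, shifts from median scaling included. Few reads per promoter limit what can be told there. Lrrtm1, Lrrtm2 and Lrrtm3 have no part outside another gene and gave no value there.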

Other observations

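Of the 45 other postsynaptic genes, 4 were higher in FC than in CON over the gene body by a log2 ratio past 0.32. Arc, Cacng1 and Cnih2 were among them and are named here after their values were seen. Over all protein-coding genes 10.8% were higher in FC by as much, and nothing is read from these genes about the list. Arc, an immediate early gene of synaptic plasticity, had 1.04 RPKM of H4K5ac-ChIP in FC and 0.733 in CON, a ratio of 0.51, with IgG-IP at 0.236 and 0.296 RPKM and input at 0.634 and 0.363. Cacng1 and Cnih2 had ratios of 0.46 and 0.33. Input was higher in FC than in CON for the 3 genes named, and its part in these values was not tested.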
